A study of Homo sapiens with 6 samples.

Results

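Histone genes were described from a comparison of MDA-MB-231 cells with lentiviral knockdown of LOXL2 (shLOXL2) and cells with a lentiviral control hairpin (shControl), with 3 arrays of each. MDA-MB-231 is an established human breast cancer line, and LOXL2 is an amine oxidase that acts on collagen and elastin. Members were selected on being listed, with a log ratio, in the authors' deposited table under an ID or symbol that began with HIST1H, HIST2H, HIST3H, HIST4H, H1F, H2AF or H3F. They came to 27 of the 724 entries of the authors' deposited table, or 21 of its 680 gene IDs. The labels name no clone, pool or number of hairpins, and do not say whether replicates were separate cultures, so array p-values measure the spread between these arrays only. For 2 control arrays, replicates 2 and 3, the source name says shLOXL2, against their title and knockdown field.

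Histones package DNA. An octamer of the core histones H2A, H2B, H3 and H4 forms the nucleosome, and the linker histone H1 binds where DNA enters and leaves it. Replication-dependent histone genes lie in clusters, lack introns and give mRNAs that end in a stem-loop in place of a poly(A) tail, and they are transcribed mainly in S phase. Replication-independent variants such as H2A.Z and H3.3 are encoded by genes outside the clusters, with introns and polyadenylated mRNAs, and are made throughout the cell cycle.

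Every histone entry was listed higher in shLOXL2 cells. A positive sign was given to 27 of the 27 entries, and a negative sign to 0, by the authors' deposited table, against 56.9% positive among all 724 entries. By gene ID, 21 of 21 histone IDs were positive in the authors' deposited table, against 56.6% of the 679 IDs of one sign. The same table chose the members, so these counts are a description and were not tested. The authors' deposited table has no error, SD or n, and its header states neither the log base nor the direction. LOXL2, the hairpin's target, was lowest in the authors' deposited table at -3.04, and its sign set the reading of higher and lower. The array values are of bulk RNA, in which more cells making histone mRNA and more histone mRNA per cell cannot be told apart.

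The histone entries of the authors' deposited table ran from 0.545 to 1.09. This would be 1.46-fold to 2.13-fold if the base is 2 and 1.72-fold to 2.97-fold if it is e. On the arrays 0 probe sets were higher by 2 or more in log2. With base e, the highest value of the authors' deposited table, 1.84 for CXCL10, would be over 2 in log2. Base e is therefore unlikely if the listed values come from these arrays. The histone median over the 21 IDs in the authors' deposited table was 0.673, close to the median of 0.649 over all 384 IDs listed higher. Histone genes thus shared a sign and were of middling size among the genes listed higher. Of 27 entries, 15 (55.6%) reached the median size of the authors' deposited table, 0.652. A value of 1 or more was found for 1 histone entry, against 9.71% of all entries listed higher in the authors' deposited table. No entry of the authors' deposited table was under 0.537 in size, so for a histone gene with no entry, a smaller change and no measurement cannot be told apart. The members nearest to that lower end in the authors' deposited table were HIST1H1C at 0.545, HIST1H4J at 0.548 and HIST1H3J at 0.553.

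**Figure D1:**
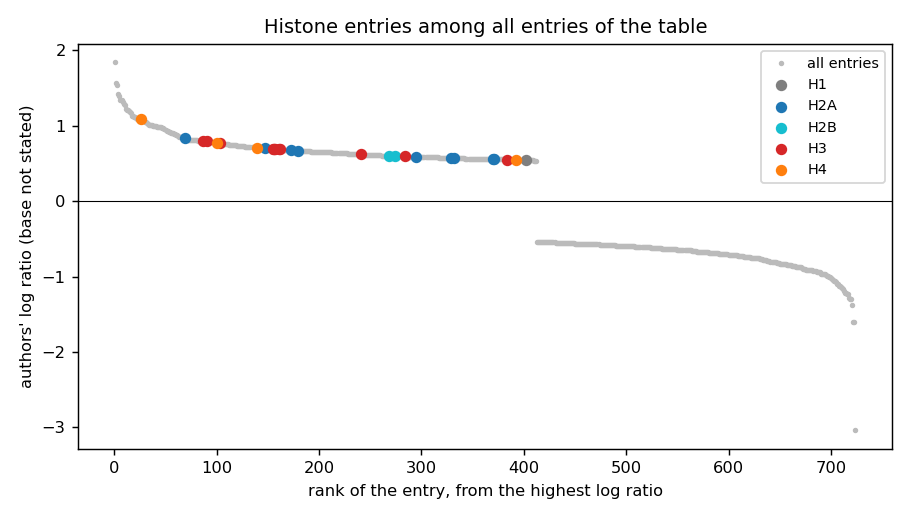
All 724 entries of the authors' deposited table by rank (x axis) and log ratio (y axis, base not stated), with the 27 histone entries coloured by class. The histone points lie on the positive side, between 0.545 and 1.09, and spread over most of its length.

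Identity of the measured gene was limited by sequence likeness. The symbol column of the authors' deposited table gave 20 of the 27 histone entries a symbol that stands for several genes, such as "HIST4H4 (includes others)". The 21 IDs thereby fell under 14 symbols, and 7 IDs had a symbol of their own. A note of D marked 19 histone entries (70.4%), against 11.0% of all entries in the authors' deposited table. Near-identical genes shared a symbol, so the 27 entries are not 27 separate genes, and whether they share probes was not tested.

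The H4 genes held the highest histone value and a low one. H4 pairs with H3 in the core of the nucleosome, and most human H4 genes encode the same protein. In the authors' deposited table HIST1H4C had 1.09, HIST1H4B 0.779, HIST1H4K 0.713 and HIST1H4J 0.548, with 1 entry each. All 4 carried the shared symbol HIST4H4 in the authors' deposited table, and their values nevertheless spanned the whole range from near the lowest to the highest histone entry. RefSeq annotates 15 coding H4 genes, and 11 of them had no ID of their own, among them both H4 genes of HIST2 and HIST4H4. HIST4H4 was named only in the shared symbol, and which further genes that symbol covers was not tested.

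HIST1H4J and HIST1H4K are neighbours, and their promoters are nearly the same. Over the 300 bases from 250 before to 50 after the RefSeq start they differed at 5 positions. The 100 bases before each start are shown (RefSeq, GRCh38.p14), with HIST1H4B as a more distant H4 gene. HIST1H4J and HIST1H4K, with nearly the same control sequence, had listed values of 0.548 and 0.713 in the authors' deposited table. Whether these values differ was not tested. Both carry the shared symbol HIST4H4, and a group difference on the arrays had a median SE of 0.158 in log2. Capitals mark the motifs searched in the promoters, which are spelled out with the shares of promoters that hold them. HIST1H4J lies at chr6:27823992-27824091, plus strand, HIST1H4K at chr6:27831561-27831660, minus strand, and HIST1H4B at chr6:26027284-26027383, minus strand.
HIST1H4J: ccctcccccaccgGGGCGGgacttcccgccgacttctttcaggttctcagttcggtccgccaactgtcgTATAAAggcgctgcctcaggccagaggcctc
HIST1H4K: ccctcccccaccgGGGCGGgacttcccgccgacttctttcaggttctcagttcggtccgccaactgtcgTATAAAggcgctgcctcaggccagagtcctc
HIST1H4B: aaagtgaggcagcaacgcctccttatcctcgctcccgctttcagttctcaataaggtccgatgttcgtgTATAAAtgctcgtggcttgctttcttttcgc
In the printed stretch HIST1H4J and HIST1H4K differed at 1 base of 100, and all 3 hold TATAAA 31 bases before the start.

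H3 genes gave the most entries, 11 for 6 IDs. H3 is the core histone whose tail carries many of the best known modifications. The HIST1 genes of H3, which encode the replication-dependent form H3.1, had values of 0.797 (HIST1H3B), 0.768 (HIST1H3A) and 0.553 (HIST1H3J) in the authors' deposited table. For the HIST2 genes, which encode H3.2, the authors' deposited table listed HIST2H3D at 0.793 and 0.691 and HIST2H3A at 0.697 in both of its entries. The 4 H3.2 entries of the authors' deposited table thus lay within 0.691 to 0.793 and shared the symbol HIST2H3C.

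H3F3A, the gene of the replication-independent variant H3.3, was the ID with most entries. Its 4 entries in the authors' deposited table were 0.698, 0.692, 0.623 and 0.594, with a mean of 0.652, all under the shared symbol H3F3A/H3F3B. H3F3A and H3F3B encode the same protein, and H3F3B had no ID of its own in the authors' deposited table. Besides the 3 coding H3 genes outside the clusters, RefSeq holds 8 pseudogenes with names of the H3F3 family, and which locus each entry measured was not tested.

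H2A genes were the most numerous class, with 8 IDs. H2A forms a dimer with H2B on the outer faces of the nucleosome. Highest was H2AFZ, the gene of the variant H2A.Z found at promoters, at 0.841 in the authors' deposited table, from 1 entry with a symbol of its own. The HIST2 genes followed in the authors' deposited table, with HIST2H2AB at 0.706 and HIST2H2AC at 0.678, both again with their own symbols. In HIST1, the authors' deposited table held HIST1H2AK at 0.673, HIST1H2AG at 0.592, HIST1H2AB at 0.576 and HIST1H2AJ at 0.573. HIST2H2AA3 closed the class in the authors' deposited table, with 0.560 in each of 2 entries. Its symbol was HIST2H2AA3/HIST2H2AA4, and the promoters of these genes were 99.3% identical in an alignment.

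H2B and H1 were the thinly listed classes. Of 18 annotated coding H2B genes, 2 were in the authors' deposited table, HIST1H2BM at 0.602 and HIST1H2BB at 0.599, each with its own symbol. Of 10 coding H1 genes, 1 was in the authors' deposited table, HIST1H1C, which encodes the linker histone H1.2, at 0.545. The shares of annotated coding genes that had an ID in the authors' deposited table were 33.3% for H3, 30.8% for H2A, 26.7% for H4, 11.1% for H2B and 10.0% for H1. Across classes the medians over IDs in the authors' deposited table were 0.746 for H4, 0.720 for H3, 0.633 for H2A and 0.601 for H2B. The range of H4, from 0.548 to 1.09 in the authors' deposited table, covered those of H2A, H2B and H3, and no test was made between classes. In all, 21 of 87 annotated coding histone genes (24.1%) had an ID in the authors' deposited table. Over all protein-coding RefSeq symbols the share was 2.68%. That share is too low for a like comparison, since it counts current symbols only and histone IDs were matched through older ones.

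**Figure D2:**
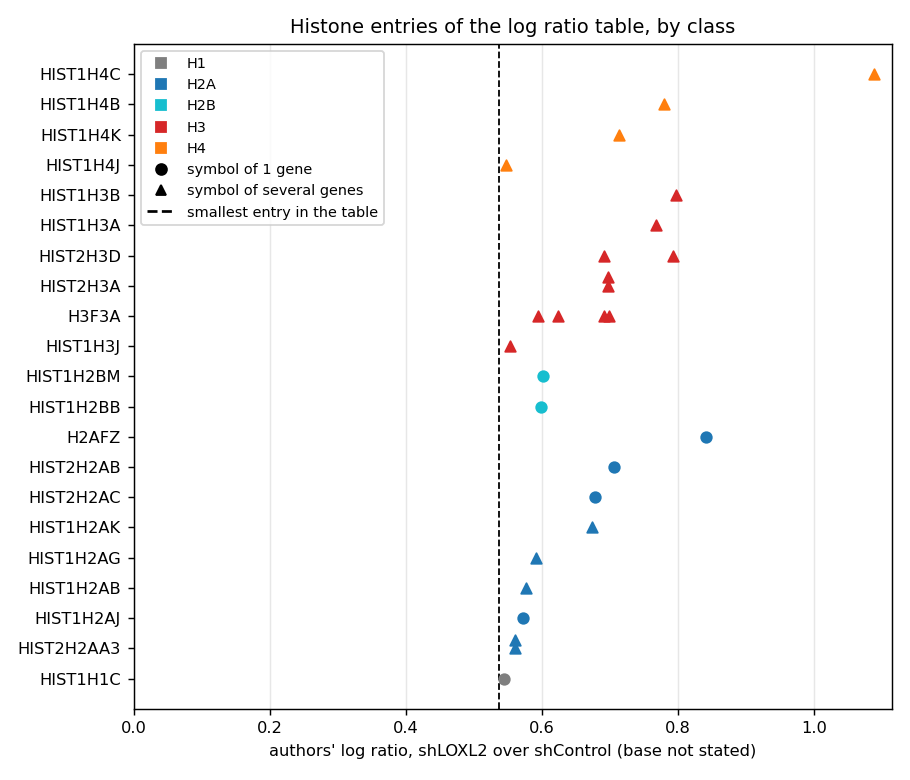
Every histone entry of the authors' deposited table (x axis, log ratio, base not stated) by gene ID (y axis), coloured by class, with triangles where the symbol stands for several genes and equal values stacked. HIST1H4C is alone above 1, and HIST1H1C lies next to the smallest listed-higher entry, 0.537.

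Replication-dependent genes made up 19 of the 21 IDs. Of 71 such coding genes in RefSeq, 26.8% had an ID in the authors' deposited table, with a median of 0.673. Of 16 coding genes outside the clusters, 2 had an ID in the authors' deposited table, H2AFZ at 0.841 and H3F3A with a mean of 0.652. Both lay within the range of the clustered genes. H2AFX, H2AFV, the macroH2A genes H2AFY and H2AFY2, and the linker genes H1F0 and H1FX, all of the same name families, had no ID there. The clustered genes in the list are short, spanning 387 to 731 bases in RefSeq, against 2188 for H2AFZ and 10189 for H3F3A.

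By cluster, HIST1 on chromosome 6 gave 14 of its 55 coding genes and HIST2 on chromosome 1 gave 5 of its 12. Their medians in the authors' deposited table were 0.601 and 0.697. The 3 coding genes of HIST3 and the 1 of HIST4 had no ID there. HIST1 splits into blocks at gaps of over 500 kb. The first block, of 34 genes, held 7 IDs of the authors' deposited table with a median of 0.768, from 0.545 to 1.09. The short second block, of 5 genes, held HIST1H2AG alone, and the third, of 16 genes, held 6 IDs with a median of 0.588 and a highest value of 0.713 in the authors' deposited table.

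Many listed genes were neighbours. In RefSeq order 13 of the 19 clustered IDs formed 4 runs in which no other coding histone gene of the cluster lay between them. The longest, at positions 43 to 47 of HIST1, was HIST1H2AJ, HIST1H2BM, HIST1H4J, HIST1H4K and HIST1H2AK, from 0.548 to 0.713 in the authors' deposited table. A run at positions 6 to 9 of HIST1 held a gene of each core class, namely HIST1H4B at 0.779, HIST1H3B at 0.797, HIST1H2AB at 0.576 and HIST1H2BB at 0.599 in the authors' deposited table. In this run the H3 and H4 genes had higher values than the H2A and H2B genes. HIST1H1C and HIST1H4C, next to each other at positions 11 and 12, had the lowest and the highest histone value of the authors' deposited table, 0.545 and 1.09. The pair at the end of HIST2, HIST2H2AC and HIST2H2AB, had 0.678 and 0.706 in the authors' deposited table. Whether listed genes neighbour each other more often than other histone genes was not tested.

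**Figure D3:**
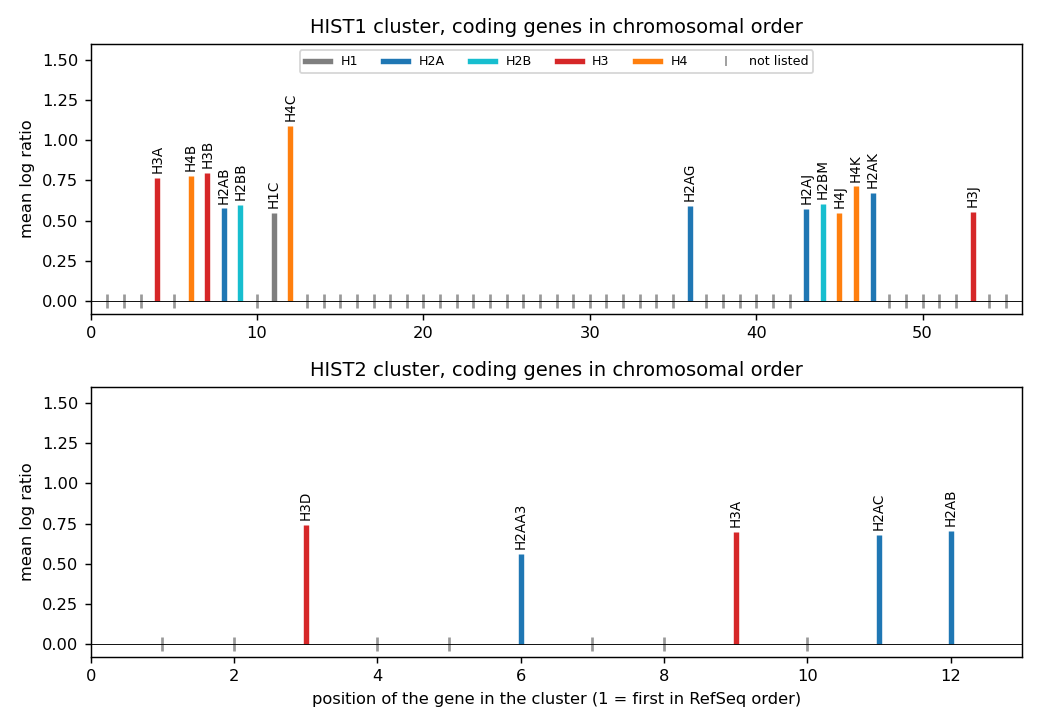
Coding genes of HIST1 (above) and HIST2 (below) in chromosomal order (x axis, position in the cluster), with bars for the mean log ratio of listed genes (y axis, authors' deposited table, base not stated) and ticks for genes with no ID. The listed genes of HIST1 form groups near its start and at positions 43 to 47, and positions 13 to 35 hold none.

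The promoters of the run at positions 6 to 9 of HIST1 are shown because its genes are of different classes. These genes were listed in the same direction, as was every histone entry. HIST1H4B is printed with the other H4 genes. HIST1H3B lies at chr6:26032100-26032199, minus strand, HIST1H2AB at chr6:26033619-26033718, minus strand, and HIST1H2BB at chr6:26043714-26043813, minus strand (RefSeq, GRCh38.p14, 100 bases before the start, motifs in capitals).
HIST1H3B: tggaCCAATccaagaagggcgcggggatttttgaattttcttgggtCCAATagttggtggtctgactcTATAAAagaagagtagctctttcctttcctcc
HIST1H2AB: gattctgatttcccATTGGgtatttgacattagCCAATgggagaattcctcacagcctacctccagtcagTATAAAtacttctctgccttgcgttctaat
HIST1H2BB: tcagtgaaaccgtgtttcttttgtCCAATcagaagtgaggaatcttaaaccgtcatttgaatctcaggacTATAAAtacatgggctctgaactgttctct
Each holds CCAAT at least once and TATAAA 30 to 32 bases before the start.

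Several H2A genes share their promoter with an H2B gene that is read the other way. For HIST1H2AJ and HIST1H2BM the starts are 245 bases apart, and both genes were listed, at 0.573 and 0.602 in the authors' deposited table. HIST1H2AK and HIST1H2BN (starts 194 bases apart), HIST1H2AG and HIST1H2BJ (248) and HIST2H2AC and HIST2H2BE (236) are arranged likewise, and there the H2A gene alone had an ID, at 0.673, 0.592 and 0.678 in the authors' deposited table. The 244 bases between the starts of HIST1H2AJ and HIST1H2BM are shown as the promoter shared by a listed pair, at chr6:27814778-27815021, plus strand, read toward HIST1H2BM (RefSeq, GRCh38.p14, motifs in capitals).
HIST1H2AJ/HIST1H2BM: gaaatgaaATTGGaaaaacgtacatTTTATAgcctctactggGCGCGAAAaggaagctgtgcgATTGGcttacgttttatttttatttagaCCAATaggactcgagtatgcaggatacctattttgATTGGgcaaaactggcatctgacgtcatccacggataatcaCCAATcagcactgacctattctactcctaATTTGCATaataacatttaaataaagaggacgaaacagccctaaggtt
The octamer ATTTGCAT lies on the HIST1H2BM side, and the TATA box of HIST1H2AJ appears on this strand as TTTATA.

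The promoters of the variants differed from each other in the TATA box. H2AFZ, at chr4:99950276-99950375, minus strand, and H3F3A, at chr1:226061731-226061830, plus strand, are shown (RefSeq, GRCh38.p14, 100 bases before the start, motifs in capitals).
H2AFZ: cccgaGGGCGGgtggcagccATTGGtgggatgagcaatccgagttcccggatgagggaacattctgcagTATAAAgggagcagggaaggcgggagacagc
H3F3A: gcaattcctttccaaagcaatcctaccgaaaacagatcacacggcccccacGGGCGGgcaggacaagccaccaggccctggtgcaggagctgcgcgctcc
H2AFZ holds a TATA box 31 bases before the start, and H3F3A holds none in its 300 bases. Both hold a GC box and a CCAAT box in their 300 bases, as do some of the clustered genes. The CCAAT box of H3F3A lies outside the printed stretch.

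Promoter motifs were counted on both strands over the 300 bases of each RefSeq promoter, which were found for 19 of the 21 IDs and 80 of 87 annotated coding genes. The motifs were the TATA box TATAAA, the CCAAT box CCAAT, the octamer ATTTGCAT known from H2B promoters, the E2F sites TTTGGCGC and TTTCGCGC, and the GC box GGGCGG. A GC box and a CCAAT box can overlap where CCGCCC runs into CCAAT. Among listed clustered genes 15 of 17 promoters (88.2%) held TATAAA on either strand, against 29 of 49 (59.2%) clustered genes with no ID and 12.0% of 27305 promoters. In HIST1H2BM the match was TTTATA, on the other strand, which is the TATA box of HIST1H2AJ. A CCAAT box was in 14 of the 17 (82.4%), 42 of the 49 (85.7%) and 35.7% of all promoters. It was missing from the 3 listed H4 promoters. The octamer was in 7 of the 17 (41.2%), 19 of the 49 (38.8%) and 1.80% of all promoters. Of the 7, 5 were windows of H2A genes and 2 of H2B genes. The windows of HIST1H2AJ and HIST1H2BM share 256 bases, so a motif there counts for both. Those of HIST1H2AG and HIST2H2AC likewise overlap windows of H2B genes with no ID. In the 150 bases nearest the start, 0 of 7 listed H2A promoters held the octamer. E2F sites were in 3 of the 17 (17.6%), 9 of the 49 (18.4%) and 1.18% of all, and GC boxes in 6 (35.3%), 13 (26.5%) and 44.6%. Over this window the listed genes had a higher share of TATAAA than the other clustered genes, and the shares of CCAAT, octamer and E2F letters lay within 4 percentage points. In the same 150 bases the octamer was in 1 of the 17 (5.88%) and in 8 of the 49 (16.3%), and TATAAA in 14 (82.4%) and 23 (46.9%). None of these differences was tested. In 15 listed promoters, H2AFZ included, TATAAA on the gene's strand began 29 to 32 bases before the start.

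**Figure D4:**
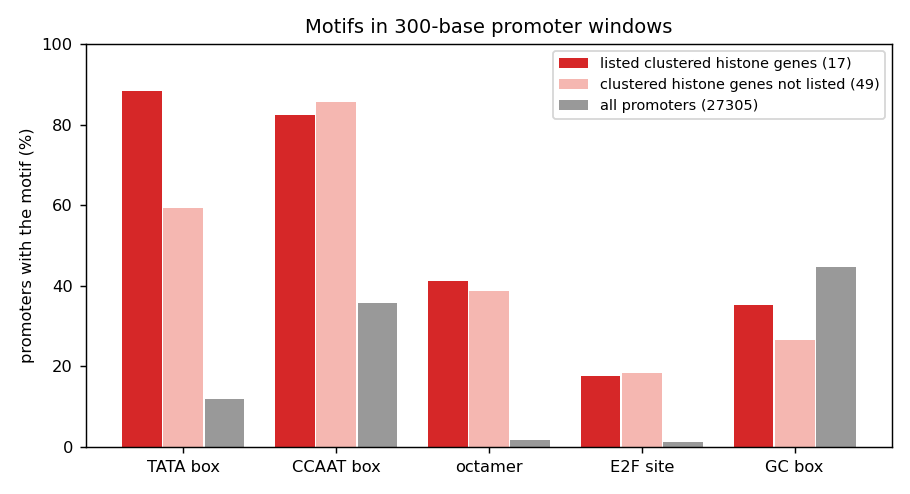
Share of promoters (y axis, percent) that hold each motif (x axis) on either strand, for the 17 listed clustered histone genes, the 49 clustered histone genes with no ID and all 27305 promoters. The TATA box stands at 88.2%, 59.2% and 12.0%, and the octamer at 41.2%, 38.8% and 1.80%.

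Promoters of some listed genes were nearly those of a histone gene with no ID. HIST2H3A was 97.4% identical to HIST2H3C, and HIST2H3D was 97.7% identical to HIST2H3PS2, the closest match of each. HIST1H2AJ was 86.8% identical to HIST1H2AI. HIST2H3C, HIST2H3PS2 and HIST1H2AI had no ID of their own in the authors' deposited table. HIST2H3C is named there in the symbol that HIST2H3A and HIST2H3D share, "HIST2H3C (includes others)". Whether a shared symbol also stands for HIST2H3PS2 or HIST1H2AI was not tested.

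Genes that regulate and handle histones were also looked up. Of 51 genes of histone gene transcription, histone mRNA processing and histone chaperones, the authors' deposited table held 4, each of them positive, and their median was 0.721. They were ASF1B at 0.792 and ASF1A at 0.549, chaperones that pass H3 and H4 to the deposition factors, CENPA, the centromeric H3 variant, at 0.761, and HJURP, its chaperone, at 0.680 in the authors' deposited table. NPAT, the co-activator of histone gene transcription in S phase, and SLBP, the protein that binds the stem-loop of histone mRNA, had no ID there. For G1/S progression and DNA synthesis, the authors' deposited table held 5 of 52 genes, each positive, and their median was 0.582. They were thymidine kinase TK1 at 0.747, the repressor E2F8 at 0.614, the primase subunit PRIM1 at 0.582, the clamp loader subunit RFC4 at 0.565 and DBF4, the activator of the kinase CDC7, at 0.562 in the authors' deposited table. For G2 phase and mitosis it held 44 of 60 genes, each positive in the authors' deposited table, and their median was 0.773. Its members farthest from 0 in the authors' deposited table were the kinesin KIF20A at 1.39, cyclin B2 CCNB2 at 1.34, CKS2 at 1.22, CDK1 at 1.20 and the kinase NEK2 at 1.18. These are 7.84%, 9.62% and 73.3% of the lists, where 2.68% of all protein-coding RefSeq symbols are IDs of the authors' deposited table. The 2.68% counts current symbols only and misses IDs under older names, some of which the lists hold. The 3 lists were also chosen with earlier results of these data known, so their shares are a description only. No ID of the authors' deposited table holds the letters NA, so 3, 1 and 1 list genes whose symbols do, such as NASP, PCNA and CCNA2, could not be matched, and the counts may be too low by these. CENPA and HJURP are in both the first and the last list. No test was made between these lists and the histone genes, whose signs and sizes come from the same arrays.

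The arrays give the error that the listed values lack, though not by gene. The deposited log2 values cover 32321 probe sets, numbered and not paired with genes in the sources used here, so no array value can be given for a histone gene, nor could markers of the cell line be checked. Array medians lay between 5.74 and 5.82. In limma with 3 against 3 arrays, 1 probe set of unknown gene, 8149774, passed an adjusted p of 0.05, or 0.00309% of those tested, and it fell by 3.08 on the log2 scale (SE 0.167, adjusted p = 0.0126). In limma this call was lost when any 1 of the 6 arrays was omitted (0 calls, smallest adjusted p over all probe sets 0.0676 to 0.149) and when shControl replicates 2 and 3 were omitted (0 calls, smallest adjusted p 0.257). Without adjustment, 1781 probe sets had a p under 0.05, and 2964 did when replicate number was blocked. The SE of a group difference had a median of 0.158, a lower decile of 0.114 and an upper decile of 0.294 over probe sets. If the listed values are log2, the lowest histone value of the authors' deposited table, 0.545, is above that upper decile. Over all probe sets, 544 were higher by 0.545 to 1.09, the range of the histone entries in the authors' deposited table. Of these 544, 262 (48.2%) had an unadjusted p under 0.05 in limma, 0 passed after adjustment (lowest adjusted p = 0.547 by limma), and in 233 (42.8%) all shLOXL2 arrays lay above all shControl arrays. The 544 were picked by the size of their rise, which raises such shares. The share of all 32321 probe sets in which the groups did not overlap was not counted. With the replicate block, where the SE had a median of 0.136, a lower decile of 0.117 and an upper decile of 0.206, 450 of the 544 (82.7%) had an unadjusted p under 0.05, and 0 passed after adjustment (lowest adjusted p = 0.358 by limma). So no probe set with a rise of the size listed for histone genes was called with these arrays, whatever its gene.

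**Figure D5:**
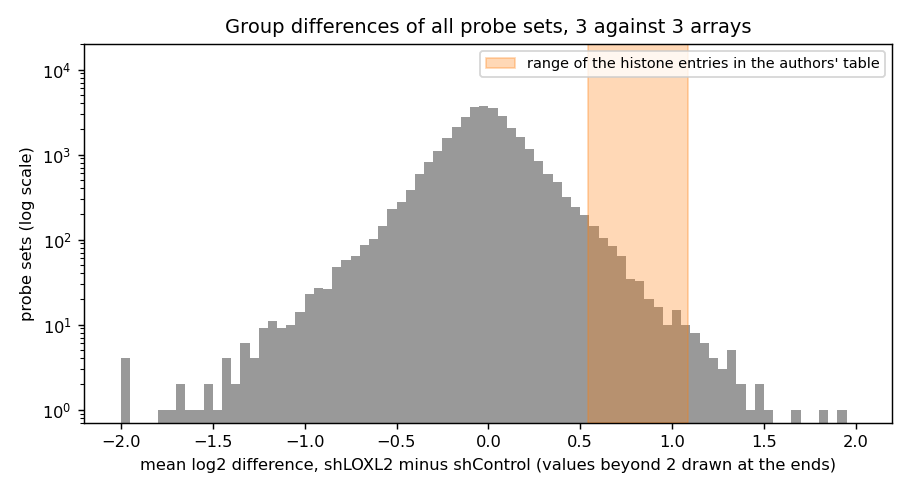
Number of probe sets (y axis, log scale) by mean log2 difference, shLOXL2 minus shControl, 3 arrays in each group (x axis), with values beyond 2 drawn at the ends. The shaded band is the range of the histone entries in the authors' deposited table, 0.545 to 1.09, if these are log2, and 544 probe sets lie in it.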

How the data were processed

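Biotin-labelled target was made from column-purified total RNA with an Affymetrix whole-transcript kit, per the labels' protocols. The deposited array values are on a log2 scale, made by RMA, per the submitters' processing notes. The authors' deposited log ratio, treated here as a score since its base is not stated, came from software of Ingenuity Systems, per the file headers. Decimal commas were converted and a leading question mark was read as minus for 312 entries, which left 0 breaks in the falling order. No source used here gives the selection rule, the probe annotation or the genome build.

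Groups came from the titles. Entries of an ID were averaged, and IDs were matched to RefSeq (GRCh38.p14) through older symbols, for 21 of 21 histone IDs. Class, cluster, order and promoters came from RefSeq. Promoters were aligned with Biopython 1.88. All members are named, with every listed gene of the 2 smaller lists and the 5 farthest from 0 of the mitotic list. The members and the 3 gene lists were chosen with earlier results of these data known.

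Probe sets were tested with limma 3.58.1 (R 4.3.3), group as the only term, with Benjamini-Hochberg adjustment. The planned test of histone probe sets could not be run without probe names. The fit was tested on simulated data. Deviations of same-numbered arrays from their group means correlated at 0.354, 0.452 and 0.160 for replicates 1, 2 and 3. The numbers were taken as pairs in the fit with the replicate block only, from the data and not from the labels. The p-values of that fit therefore rest on pairs read from the same arrays. The number of arrays limits the precision.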

Additional observations from a re-analysis of the deposited data

How the results depend on the processing

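The 27 entries and 21 IDs were the same by the ID column or the symbol column alone. Without entries whose symbol stands for several genes, 7 entries of 7 IDs were left, all listed higher, with a median of 0.602. Of entries no smaller than the median of the whole table there were 15, from 12 IDs, with a median of 0.728. The median of 0.673 was 0.678 by entry or by the entry farthest from 0, and, chosen after seeing the data, 0.642 over 14 symbols and 0.673 without IDs of several entries. By entry the medians of H2A, H3 and the genes outside the clusters, 0.633, 0.720 and 0.746, were 0.592, 0.697 and 0.692, and those of the other classes and clusters moved by under 0.005. With pseudogenes counted, the shares listed were 9.09% for H1, 20.5% for H2A, 7.69% for H2B, 20.7% for H3 and 25% for H4. In the 150 bases nearest the start, 1 of 19 listed promoters held an octamer in place of 7, and 5 held a GC box in place of 8. The other motif counts stayed within 1.5 times.

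On the arrays there was 1 call with the replicate block (2964 probe sets at an unadjusted p under 0.05, against 1781), and also under quantile normalization, median centring, both filters and trend and robust moderation. There were 0 calls in limma when each array was omitted in turn (range 0 to 0, with 1063 to 2250 at p under 0.05 before adjustment), 0 when shControl replicates 2 and 3 were omitted (3975, with the remaining control array taken to vary like the rest) and 0 at an adjusted p under 0.01 (1781). The alternatives for histone probe sets were not run, since no probe set could be named.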

Other observations

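The letters NA occur in 0 of the 680 IDs of the authors' deposited table, while 1.86% of 20056 protein-coding RefSeq symbols hold them. Some IDs with an empty symbol, such as CC2 at 0.905 in the authors' deposited table, match no gene name. No older or current name of an annotated histone gene holds these letters (0 names), so the choice of histone members does not depend on them. The counts of the histone supply, G1/S and G2 and mitosis lists do, by up to 3, 1 and 1 genes.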
